A study of Rattus norvegicus with 38 samples.

Results

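The 6 circadian clock genes were followed through 5 regions of the rat heart in failing and healthy animals. They were Bmal1 (also called Arntl, ENSRNOG00000014448), Clock (ENSRNOG00000002175), Per1 (ENSRNOG00000007387), Per2 (ENSRNOG00000020254), Nr1d1 (ENSRNOG00000009329) and Dbp (ENSRNOG00000021027). The 6 members were given by Ensembl ID with the question whether their phase differs by health state or by the 4-digit code in the library titles, and all 6 stood among the 24057 genes of the deposited tables. The deposited tables hold IDs only, so the gene names are those given with the IDs, and 0 IDs matched the reference table of assembly GRCr8. For the same reason the other genes of the clock network and the markers of cell types could not be looked up, and the tissue labels were not checked against markers.

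The study compared the hearts of male Sprague-Dawley rats aged 10 weeks. In the protocol of the labels the pups had a band placed around the ascending aorta at 1 week of age, with hypertrophy of the left ventricle as the outcome. That protocol is attached to failing and healthy libraries alike, and the procedure on healthy rats is not stated in these sources. RNA sequencing covered 20 failing and 18 healthy libraries from 2 parts of the sinoatrial node, the inferior (iSAN) and the superior (sSAN), from both atria (right, RA, and left, LA) and from the left ventricle (LV), with 4 libraries a group except 2 in healthy LV. The sinoatrial node is the pacemaker tissue of the heart. Titles carry a 4-digit code that recurs across regions, as in LA_0409, LA_0506, LA_0507 and LA_0508 from failing hearts, whose codes are called F1 to F4 in that order below. The healthy codes, as in LA_0920, LA_0921, LA_1001 and LA_1002, are called H1 to H4. Values are listed in the order of the codes, and healthy LV had H3 and H4 only. Whether a code stands for an animal is not stated, and if some libraries share an animal, p-values measure no more than the spread between libraries. As 0 codes occur in both states, a batch that follows the codes and the health state cannot be told apart.

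The circadian clock is a feedback loop of transcription that runs in most cells, heart muscle included. BMAL1 and CLOCK form a dimer that binds E-boxes and switches on Per1, Per2, Nr1d1 and Dbp. PER1 and PER2, with the CRY proteins, then inhibit that dimer, while NR1D1 (REV-ERBα) represses Bmal1 through nuclear receptor elements, and DBP passes the rhythm on through D-boxes. In rodent hearts Bmal1 RNA peaks around the change from dark to light, Nr1d1 RNA during the light, Dbp and Per1 RNA later, and Per2 RNA near the change to dark, whereas Clock RNA cycles little. The hour at which the hearts were taken is not stated in these sources. No phase was therefore estimated, and a difference in collection time cannot be told apart from a difference between states or codes.

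RefSeq promoters of build GRCr8, from 250 bases before to 50 bases after a start site, were at hand for 6 of 6 members, with 8 entries in all. They are shown for the 3 members whose promoters held a motif of the loop, with the motif in capitals. The Bmal1 window lies at chr1:176766078-176766377 on the plus strand, the Per2 window at chr9:99496944-99497243 on the minus strand, and the Nr1d1 window at chr10:84229405-84229704 on the minus strand.
Bmal1: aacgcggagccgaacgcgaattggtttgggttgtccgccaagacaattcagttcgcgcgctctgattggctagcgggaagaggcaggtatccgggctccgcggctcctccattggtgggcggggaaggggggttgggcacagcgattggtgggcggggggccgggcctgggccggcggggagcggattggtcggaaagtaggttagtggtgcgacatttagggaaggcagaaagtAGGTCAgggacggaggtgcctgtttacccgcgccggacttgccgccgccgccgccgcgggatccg
Per2: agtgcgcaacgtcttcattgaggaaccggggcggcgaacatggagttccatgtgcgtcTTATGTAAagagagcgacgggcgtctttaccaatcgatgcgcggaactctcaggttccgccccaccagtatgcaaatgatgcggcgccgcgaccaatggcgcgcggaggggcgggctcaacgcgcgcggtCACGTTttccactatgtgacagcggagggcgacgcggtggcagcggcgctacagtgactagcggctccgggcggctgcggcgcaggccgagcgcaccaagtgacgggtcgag
Nr1d1: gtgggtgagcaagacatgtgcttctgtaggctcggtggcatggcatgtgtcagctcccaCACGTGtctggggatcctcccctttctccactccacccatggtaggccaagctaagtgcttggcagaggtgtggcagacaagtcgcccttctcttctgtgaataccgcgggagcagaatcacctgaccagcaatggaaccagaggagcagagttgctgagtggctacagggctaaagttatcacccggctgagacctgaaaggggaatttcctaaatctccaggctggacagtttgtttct
The Bmal1 promoter held the nuclear receptor core motif AGGTCA, which began at position -15 from the start site. The Per2 promoter held the D-box TTATGTAA at -192 and the E-box variant CACGTT at -62. The Nr1d1 promoter held the E-box CACGTG at -191, and a second Nr1d1 entry held the variant alone. Both strands were searched, and the variant was added after the sequences had been seen. Of 33469 promoters of the same length, 16.2% held AGGTCA, 0.893% held TTATGTAA, 6.42% held CACGTG and 4.83% held CACGTT. The entries of Clock, Per1 and Dbp held none of the 4 motifs in this window. These matches describe letters and do not show binding.

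Library totals lay between 17406473 and 27355777 estimated counts. LV libraries stood apart in composition. The TMM scaling factors, which correct for a few genes taking up much of a library, ran from 0.379 to 1.33 over all libraries. The lowest belonged to failing LV F3 and the highest to failing iSAN F2. TPM, a unit of level per transcript length, does not carry the TMM correction. Mean TPM was lowest in LV for every member in failing hearts, and in healthy hearts for every member but Bmal1. The part of composition in these low values was not tested. Tests below used counts with TMM scaling, and CPM stands for counts scaled to a common library size with TMM. In bulk tissue, fewer cells of a type and less RNA per cell cannot be told apart.

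The 6 genes differed widely in level. The median level of Bmal1 was 3.27 TPM in failing and 0.734 TPM in healthy libraries. For Clock the medians were 6.13 TPM in failing and 6.63 TPM in healthy libraries. The median was 11.8 TPM in failing and 21.4 TPM in healthy libraries for Per1, and 7.34 TPM in failing and 12.5 TPM in healthy libraries for Per2. The nuclear receptor gene Nr1d1 and the output gene Dbp were the most abundant members per length, with medians of 41.7 TPM in failing and 43.1 TPM in healthy libraries for Nr1d1, and 85.6 TPM in failing and 147 TPM in healthy libraries for Dbp. Bmal1 was the scarcest and rested on 33.8 to 335 estimated counts in failing and 27.7 to 90.6 in healthy libraries, whereas each other member had at least 124 in every library.

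**Figure D1:**
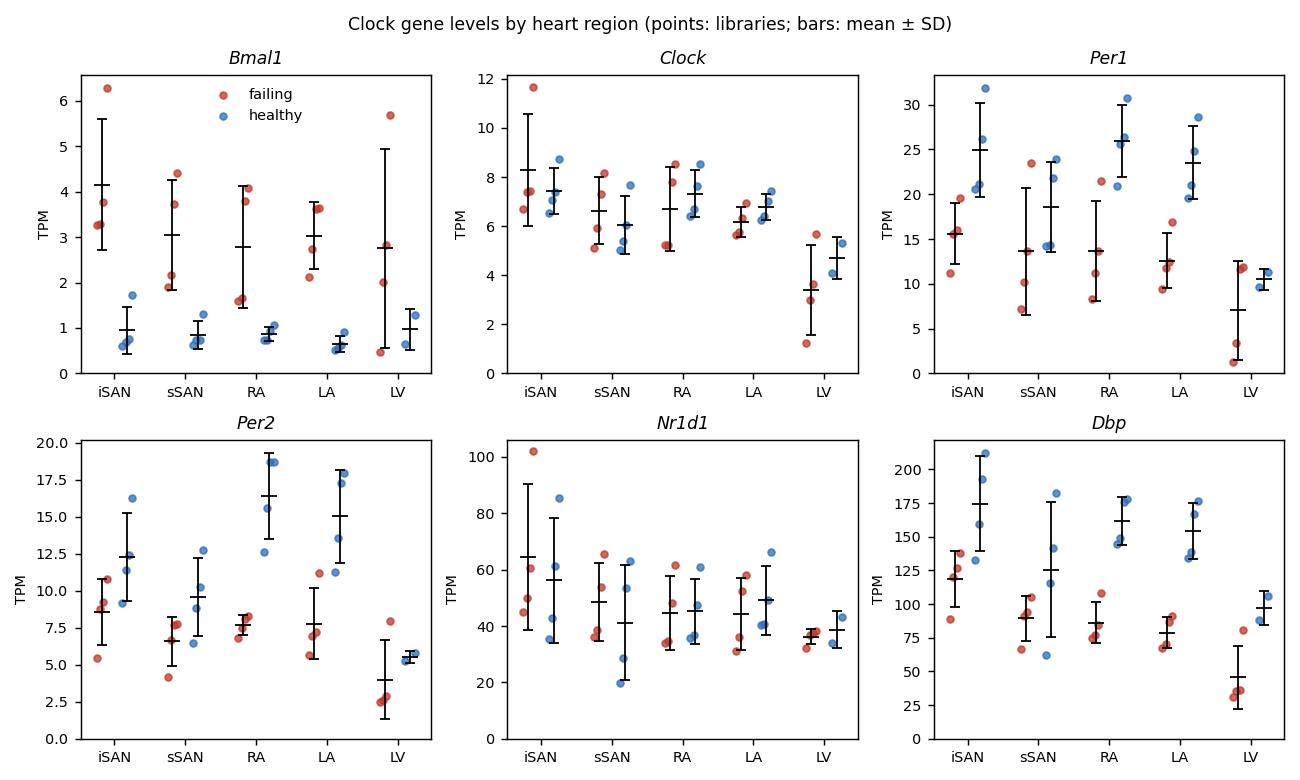
Level of each clock gene in TPM (vertical axes) by heart region (horizontal axes), with failing libraries in red left of healthy libraries in blue; points are libraries and bars are means ± SD (n = 4, except n = 2 in healthy LV). Within each of iSAN, sSAN, RA and LA, Bmal1 was higher in every failing library than in every healthy library. Per2 in RA and Dbp in RA and LA lay lower in every failing library. In TPM so did Per1 in iSAN and LA, Per2 in LA and Dbp in LV, which overlapped in CPM.

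Outside LV, failing hearts had about 4-fold more Bmal1 RNA and 1.6-fold to 1.7-fold less Per1, Per2 and Dbp RNA than healthy hearts. Clock and Nr1d1 passed the test in no region, in sSAN only Bmal1 passed, and in LV no member did. With the counts of each code summed over iSAN, sSAN, RA and LA, so that the code was the replicate (4 failing and 4 healthy codes), 4 of the 6 members passed edgeR's quasi-likelihood test at a Benjamini-Hochberg adjusted p under 0.05. Over all genes tested in that comparison 53% passed, 27.1% higher and 25.9% lower in failing hearts, so a count of 4 in 6 is near the background. All 6 members passed the filter on low counts in every comparison. Bmal1 was 3.91-fold higher in failing hearts (log2 difference 1.97, SE 0.25, adjusted p 0.000356). Per2 was 1.69-fold lower (log2 difference -0.75, SE 0.17, adjusted p 0.00608), Dbp 1.62-fold lower (log2 difference -0.69, SE 0.13, adjusted p 0.00181) and Per1 1.61-fold lower (log2 difference -0.69, SE 0.24, adjusted p 0.0362). The median absolute log2 difference of all genes was 0.37. Summed by code, the failing and healthy groups did not overlap for Bmal1 (failing above, as in 24.5% of genes) or for Per2 and Dbp (failing below, as in 24.7% of genes), and they overlapped for Per1. Clock (log2 difference 0.03, SE 0.10, adjusted p 0.849) and Nr1d1 (log2 difference 0.08, SE 0.25, adjusted p 0.809) did not pass.

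**Figure D2:**
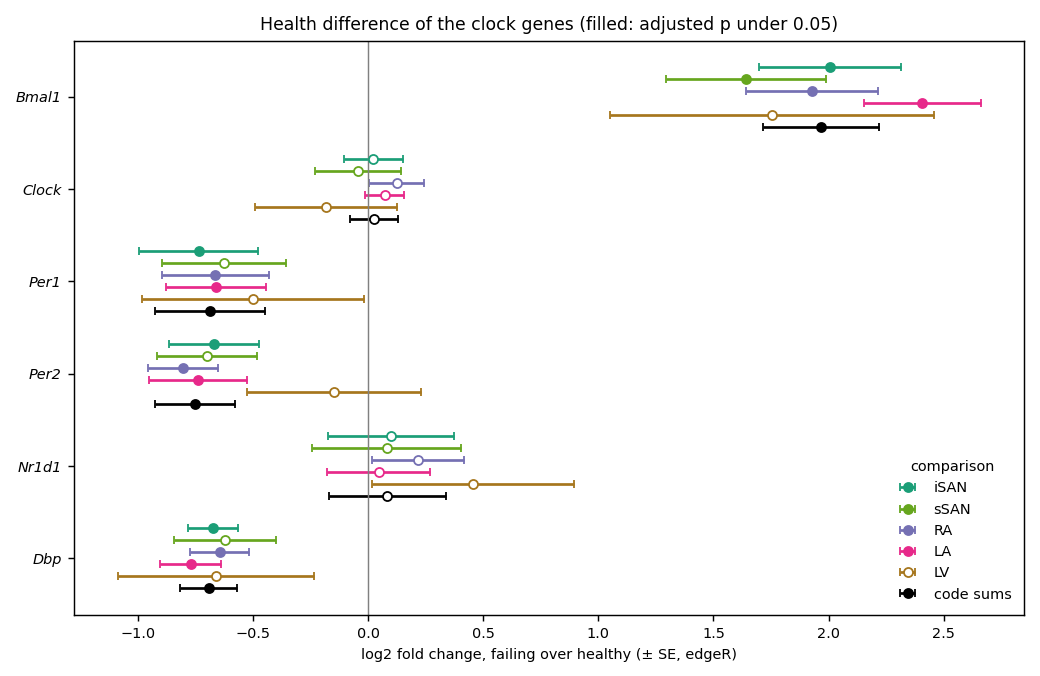
The log2 fold change of failing over healthy (horizontal axis) with its standard error from edgeR, for each gene (rows) in each region and in the sums by code; filled points had an adjusted p under 0.05. Bmal1 lies to the right of 1 in every region, Per1, Per2 and Dbp lie between -1 and 0, and Clock and Nr1d1 lie between -0.18 and 0.45.

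Bmal1 encodes the partner of CLOCK in the activating dimer, and it was the member that differed most. In iSAN, Bmal1 had 3.29, 6.28, 3.26 and 3.78 TPM in failing libraries, against 0.767, 0.609, 1.72 and 0.689 TPM in healthy libraries. In sSAN, Bmal1 had 4.41, 3.72, 2.16 and 1.91 TPM in failing libraries, against 0.733, 0.627, 1.31 and 0.728 TPM in healthy libraries. The lowest failing library lay above the highest healthy library in both parts of the node, and code H3 was the highest healthy library in both. In RA, Bmal1 had 3.80, 4.08, 1.67 and 1.59 TPM in failing libraries, against 0.735, 1.06, 0.736 and 0.934 TPM in healthy libraries. In LA, Bmal1 had 3.61, 3.64, 2.73 and 2.12 TPM in failing libraries, against 0.620, 0.566, 0.904 and 0.519 TPM in healthy libraries. The atrial groups did not overlap either, and in both atria codes F1 and F2 were the 2 highest failing libraries. The log2 difference was 2.01 (SE 0.31, edgeR adjusted p 0.002) in iSAN, 1.64 (SE 0.35, edgeR adjusted p 0.0223) in sSAN, 1.93 (SE 0.29, edgeR adjusted p 0.000809) in RA and 2.41 (SE 0.26, edgeR adjusted p 0.000197) in LA. Failing libraries lay above healthy ones without overlap for 17.8% of genes in iSAN, 12.6% in sSAN, 22.1% in RA and 22.5% in LA. In sSAN the call was lost without healthy H1 or without healthy H4, with adjusted p values up to 0.0674 and log2 differences of at least 1.47 over all libraries left out in turn.

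Clock encodes the partner of BMAL1, and its RNA differed little with health. In iSAN, Clock had 6.70, 11.7, 7.42 and 7.38 TPM in failing libraries, against 7.40, 7.07, 8.73 and 6.54 TPM in healthy libraries. In LA it had 6.35, 6.94, 5.62 and 5.78 TPM in failing libraries, against 7.03, 7.41, 6.25 and 6.41 TPM in healthy libraries. The groups overlapped in every region. Failing iSAN F2 held the highest level of all libraries in TPM only. In CPM it had 52.3, below failing LV F1 at 56.5 and healthy sSAN H2 at 55.6. The log2 differences outside LV lay between -0.04 in sSAN and 0.12 in RA, with adjusted p values of 0.424 to 0.904. In each of these regions the sign changed with unscaled TPM or with a library left out, so no direction is given.

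Per1, an early arm of the negative feedback that also responds to stress hormones, was lower in failing hearts, with calls that most single libraries could undo. In iSAN, Per1 had 19.6, 15.6, 16.0 and 11.3 TPM in failing libraries, against 31.8, 20.6, 21.1 and 26.2 TPM in healthy libraries. In RA, Per1 had 21.4, 11.2, 13.7 and 8.29 TPM in failing libraries, against 30.8, 26.4, 20.9 and 25.6 TPM in healthy libraries. Code F1 was the highest failing library in both, and in RA it lay above healthy H3. In LA, Per1 had 16.8, 9.40, 11.7 and 12.4 TPM in failing libraries, against 28.6, 24.8, 19.5 and 21.0 TPM in healthy libraries, which did not overlap. In sSAN it had 23.5, 7.17, 13.7 and 10.2 TPM in failing libraries, against 23.9, 14.3, 14.2 and 21.8 TPM in healthy libraries, which overlapped through failing F1. In CPM the groups overlapped in all 5 regions. The log2 difference was -0.74 (SE 0.26, edgeR adjusted p 0.0495) in iSAN, -0.63 (SE 0.27, edgeR adjusted p 0.142) in sSAN, -0.66 (SE 0.23, edgeR adjusted p 0.0381) in RA and -0.66 (SE 0.22, edgeR adjusted p 0.0312) in LA. With each library left out in turn the call was lost in 6 of 8 runs in iSAN, 7 of 8 in RA and 6 of 8 in LA, with adjusted p values up to 0.122, and it was gained in sSAN without failing F1 (log2 difference -0.92, adjusted p 0.0344). Over the sums by code it was lost without F2, F3, F4, H1, H2 or H4 (adjusted p 0.0604 to 0.0989), and the log2 difference stayed between -0.96 and -0.55. It was also lost with no filter on low counts (adjusted p 0.0585), and in the single fit of 38 libraries Per1 passed in none of iSAN, RA and LA (adjusted p 0.0866 to 0.1).

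Per2, the later arm of the negative feedback, was lower in failing hearts outside LV, most clearly in RA. In RA, Per2 had 6.82, 7.45, 8.11 and 8.32 TPM in failing libraries, against 18.7, 18.7, 12.6 and 15.6 TPM in healthy libraries. In LA, Per2 had 5.69, 7.23, 6.94 and 11.2 TPM in failing libraries, against 18, 17.3, 11.3 and 13.6 TPM in healthy libraries. In TPM the RA groups lay apart, whereas failing F4 came close to healthy H3 in LA. In CPM the highest failing RA library had 48.4, against 56.9 in the lowest healthy one. LA F4 at 58.2 CPM lay above LA H3 at 50.6 CPM. In iSAN it had 5.45, 9.21, 8.80 and 10.8 TPM in failing libraries, against 16.3, 11.4, 9.15 and 12.4 TPM in healthy libraries. In sSAN it had 6.69, 4.16, 7.73 and 7.72 TPM in failing libraries, against 12.8, 8.84, 6.48 and 10.3 TPM in healthy libraries. Both parts of the node overlapped, each through healthy H3. The log2 difference was -0.81 (SE 0.15, edgeR adjusted p 0.00235) in RA, -0.74 (SE 0.21, edgeR adjusted p 0.0177) in LA, -0.67 (SE 0.20, edgeR adjusted p 0.0246) in iSAN and -0.70 (SE 0.22, edgeR adjusted p 0.0604) in sSAN. In CPM the groups did not overlap in RA, where failing lay below healthy for 22.3% of genes, and overlapped in the other 4 regions. The iSAN call was lost without failing F1, failing F2, healthy H1 or healthy H2 (adjusted p up to 0.0638), and the LA call without healthy H1 (adjusted p 0.0517). In iSAN it was also lost with limma on unscaled TPM (adjusted p up to 0.162). The RA call held with each library left out.

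Nr1d1 encodes the heme-binding nuclear receptor that represses Bmal1, and its failing and healthy ranges covered one another. In iSAN, Nr1d1 had 60.7, 102, 49.9 and 44.9 TPM in failing libraries, against 42.8, 35.2, 85.3 and 61.5 TPM in healthy libraries. In RA it had 48.1, 61.8, 34.6 and 33.8 TPM in failing libraries, against 35.7, 36.9, 60.8 and 47.3 TPM in healthy libraries. Within failing hearts F1 and F2 were high, and within healthy hearts H3 and H4 were high. In sSAN it had 65.7, 53.7, 38.4 and 36.1 TPM in failing libraries, against 28.5, 19.9, 63.2 and 53.3 TPM in healthy libraries. In LA it had 52.3, 58.0, 36.0 and 31.0 TPM in failing libraries, against 40.3, 40.6, 66.3 and 49.1 TPM in healthy libraries. The same 4 codes were the high ones in each of these regions. The log2 differences outside LV lay between 0.05 in LA and 0.22 in RA (edgeR adjusted p 0.39 to 0.884), and their sign changed with the libraries left out, except in RA, where it changed with unscaled TPM. A missed threshold does not show that Nr1d1 was alike in both states.

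Dbp, a transcription factor gene driven directly by the dimer and one of the strongest rhythmic outputs in many tissues, was lower in failing hearts. In RA, Dbp had 75, 109, 84.5 and 77.0 TPM in failing libraries, against 149, 145, 176 and 178 TPM in healthy libraries. In LA, Dbp had 70.5, 91.2, 67.1 and 86.6 TPM in failing libraries, against 139, 134, 176 and 167 TPM in healthy libraries. Every failing atrial library lay below every healthy one. In iSAN it had 89.1, 138, 120 and 127 TPM in failing libraries, against 160, 133, 193 and 212 TPM in healthy libraries. In sSAN it had 106, 66.6, 90.9 and 94.2 TPM in failing libraries, against 116, 62.5, 142 and 182 TPM in healthy libraries. The sSAN groups overlapped through healthy H2 (8.76% of genes had failing below healthy without overlap there), and in iSAN failing F2 lay above healthy H2 in TPM, although the iSAN groups did not overlap in CPM. The log2 difference was -0.65 (SE 0.13, edgeR adjusted p 0.00309) in RA, -0.77 (SE 0.13, edgeR adjusted p 0.00156) in LA, -0.67 (SE 0.11, edgeR adjusted p 0.00224) in iSAN and -0.62 (SE 0.22, edgeR adjusted p 0.0862) in sSAN. Failing lay below healthy without overlap for 19.3% of genes in iSAN, 22.3% in RA and 23.6% in LA. In iSAN the call was lost with limma on unscaled TPM (adjusted p up to 0.0736).

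Counted by region, 4 of 6 members passed in iSAN, where 38.5% of all genes did (19.5% higher and 19% lower in failing hearts). In sSAN 1 of 6 passed, against 13.5% of all genes (8.92% higher, 4.56% lower). In RA 4 of 6 passed, against 47.5% of all genes (24.5% higher, 23% lower), and in LA 4 of 6 passed, against 48.2% of all genes (24.3% higher, 23.9% lower). In each of iSAN, RA and LA these were Bmal1, higher in failing hearts, and Per1, Per2 and Dbp, lower, and in sSAN it was Bmal1. DESeq2 also called Per2 (adjusted p 0.0177) and Dbp (adjusted p 0.0353) in sSAN, over alternatives that gave 0.0177 to 0.24 for Per2 and 0.0353 to 0.464 for Dbp. In a single fit of all 38 libraries, the test of a health difference that varies with region passed for 0 of 6 members, against 0.774% of all genes (edgeR adjusted p 0.825 to 0.999 for the members). At an unadjusted p under 0.05 that test had 1872 genes, 0 of them members, and DESeq2 also called 0 members.

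In the left ventricle 0 of 6 members passed, against 0% of all genes with edgeR, although 1510 genes had an unadjusted p under 0.05 and DESeq2 called 356 genes, 0 of them members. LV had 4 failing and 2 healthy libraries. Bmal1 had 5.69, 2.82, 0.48 and 2.01 TPM in failing LV, against 1.29 and 0.646 TPM in healthy LV. In TPM failing F3 lay below both healthy libraries, but in CPM it had 4.71 against 4.36 and 2.39 in healthy LV, so that the groups just missed overlapping. Failing lay above healthy without overlap for 15.7% of genes in LV. The log2 difference of Bmal1 was 1.75 (SE 0.70, edgeR adjusted p 0.435), and it was 1.34 to 2.25 with each library left out. Bmal1 in LV passed when all 38 libraries shared an estimate of the spread (log2 difference 1.77, adjusted p 0.0146), the smallest of 0.0146 to 0.947 over the alternatives. Dbp had 30.6, 36.0, 35.8 and 80.5 TPM in failing LV, against 88.3 and 106 TPM in healthy LV, and differed by -0.66 on the log2 scale (SE 0.43, edgeR adjusted p 0.534). In CPM the Dbp groups overlapped, as failing F3 had 194 against 167 and 219 in healthy LV. Per2 had 2.89, 2.59, 2.47 and 7.99 TPM in failing LV, against 5.23 and 5.78 TPM in healthy LV, and Per1 had 11.9, 3.44, 1.23 and 11.7 TPM, against 9.67 and 11.3 TPM. The 2 states overlapped for both genes. Clock had 5.70, 3.01, 1.24 and 3.63 TPM in failing LV, against 5.30 and 4.10 TPM in healthy LV, and Nr1d1 had 38.3, 36.9, 32.2 and 37.5 TPM, against 43.4 and 34.1 TPM. These overlapped as well. The log2 differences of the 4 genes lay between -0.50 for Per1 and 0.45 for Nr1d1 (edgeR adjusted p 0.648 to 0.86). The part of the LV composition in these levels was not tested.

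Codes of one health state also differed, in the same way in most regions. In healthy hearts, Per1, Per2, Nr1d1 and Dbp differed between the 4 codes, and in failing hearts Bmal1, Clock, Per1 and Per2 did (edgeR F test with region as a covariate). Among healthy libraries 4 of 6 members passed, against 7.66% of all genes. Among failing libraries 4 of 6 passed, against 6.18% of all genes. The regions of a code served as its repeats, and libraries of a code may share an animal. The test asks whether codes differ by more than the spread within a code once region means are taken out. It took in LV, whereas the means, folds and orders of codes below leave LV out.

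**Figure D3:**
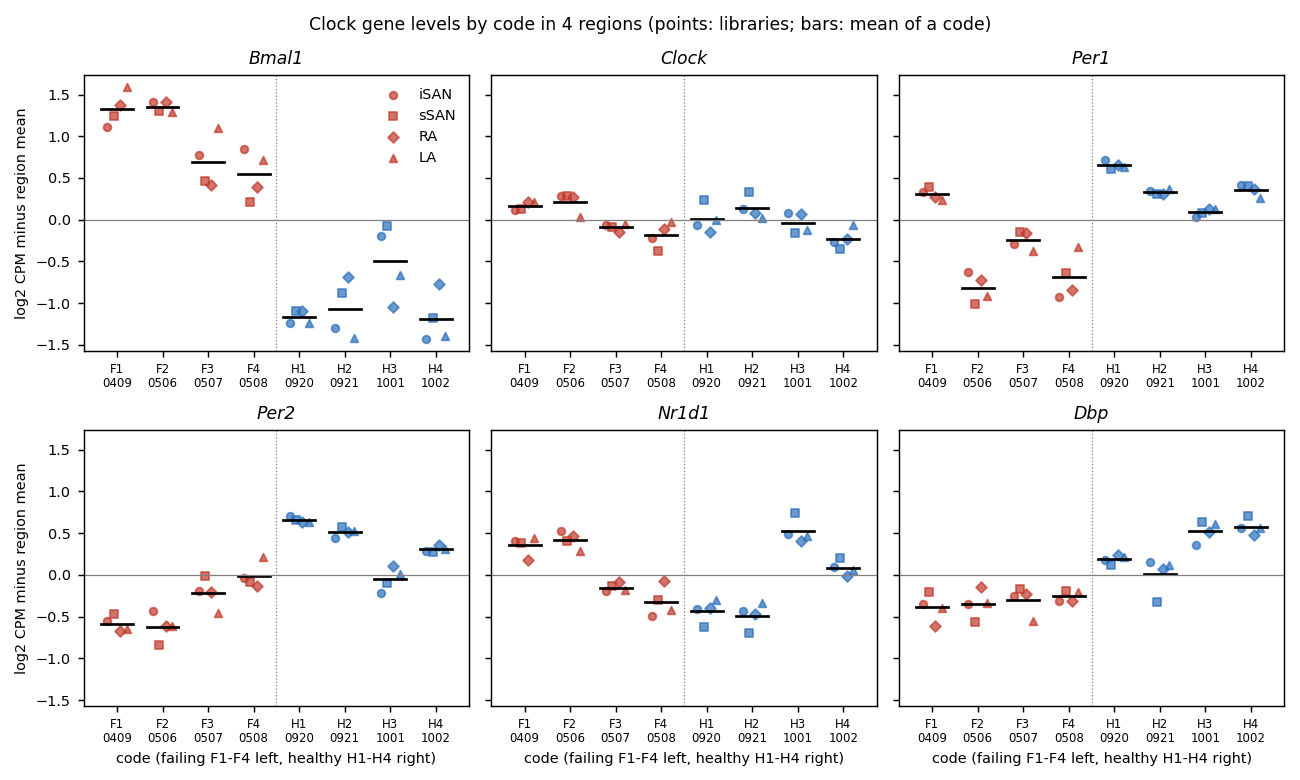
Level of each clock gene by code (horizontal axes, failing codes in red left of healthy codes in blue) as log2 CPM minus the mean of the region (vertical axes); points are the libraries of iSAN, sSAN, RA and LA, and black bars are the mean of a code. Bmal1 and Nr1d1 are high in F1 and F2 among failing codes, and Nr1d1 is high in H3 among healthy codes.

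In healthy hearts code H3 stood at one end for 3 genes. Averaged over iSAN, sSAN, RA and LA (± SD over the 4 regions), Nr1d1 had 36.9 ± 6.27 TPM in H1, 33.2 ± 9.15 in H2, 68.9 ± 11.2 in H3 and 52.8 ± 6.29 in H4. In CPM code H3 was the highest and H2 the lowest in 4 of 4 regions, 2.02-fold apart (log2 difference 1.01, edgeR adjusted p over the 4 codes 1.652e-05), although in TPM H1 lay just below H2 in both atria. Per2 had 16.4 ± 2.63 TPM in H1, 14.1 ± 4.69 in H2, 9.88 ± 2.68 in H3 and 13 ± 2.23 in H4. Per2 thus ran the other way, with H1 the highest and H3 the lowest in 4 of 4 regions in CPM, 1.64-fold apart (edgeR adjusted p 3.276e-05). Per1 had 28.8 ± 3.5 TPM in H1, 21.5 ± 5.40 in H2, 18.9 ± 3.21 in H3 and 23.7 ± 2.63 in H4, with the same highest and lowest codes as Per2 in 4 of 4 regions in CPM, 1.47-fold apart (edgeR adjusted p 0.00012). Dbp had 141 ± 18.8 TPM in H1, 119 ± 37.8 in H2, 172 ± 21.6 in H3 and 185 ± 19.5 in H4, with H2 the lowest in 4 of 4 regions, 1.48-fold below H4 in CPM (edgeR adjusted p 0.00594). Bmal1 had 0.714 ± 0.0643 TPM in H1, 0.716 ± 0.231 in H2, 1.17 ± 0.441 in H3 and 0.718 ± 0.170 in H4, and H3 was the highest in 3 of 4 regions in CPM, but edgeR's test did not pass (adjusted p 0.0641), while DESeq2 called it (adjusted p 0.0206, the smallest of 0.0206 to 0.899 over the alternatives). Clock did not pass either (adjusted p 0.0959). The 4 calls held with each healthy code left out (adjusted p up to 0.0499), and with limma on log2(TPM + 1) Per1 and Dbp missed the threshold (adjusted p 0.0528 and 0.073).

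Failing hearts carried other codes than healthy hearts, so the order of codes is given within the state only. Averaged over the same 4 regions, Bmal1 had 3.78 ± 0.472 TPM in F1, 4.43 ± 1.25 in F2, 2.46 ± 0.691 in F3 and 2.35 ± 0.977 in F4 (edgeR adjusted p 0.00823 with LV in the fit). Nr1d1 had 56.7 ± 7.94 TPM in F1, 68.9 ± 22.3 in F2, 39.7 ± 6.93 in F3 and 36.5 ± 6.01 in F4. Codes F1 and F2 were thus the high ones for both genes, 1.75-fold apart from highest to lowest code for Bmal1 and 1.67-fold for Nr1d1 in CPM. The Nr1d1 test missed the threshold over 5 regions (edgeR adjusted p 0.119) and passed without LV F3 (adjusted p 0.000745), without LV as a whole (adjusted p 0.00184) and with DESeq2 (adjusted p 0.0436), over alternatives that gave 0.000745 to 0.671. Per2 had 6.16 ± 0.695 TPM in F1, 7.02 ± 2.10 in F2, 7.89 ± 0.776 in F3 and 9.52 ± 1.76 in F4, with F4 the highest in 3 of 4 regions in CPM (edgeR adjusted p 0.0113). Per1 had 20.3 ± 2.82 TPM in F1, 10.8 ± 3.56 in F2, 13.8 ± 1.72 in F3 and 10.5 ± 1.75 in F4, and F1 was the highest in 4 of 4 regions, 2.18-fold above F2 in CPM (edgeR adjusted p 0.0174). The lowest code for Per1 was less clear, as F2 was the lowest in 2 of 4 regions in CPM and F4 had the lowest mean in TPM. Clock differed by 1.32-fold between its highest and lowest code (edgeR adjusted p 0.022), and Dbp by 1.10-fold (edgeR adjusted p 0.446). These calls were lost in part or in whole without F1, F2 or F4, where fewer genes passed in all. Without F1 the edgeR adjusted p was 0.544 for Per1 and 0.0615 to 0.119 for Bmal1, Clock and Per2. Without code F1 the count fell to 0 members and without F2 or F4 to 1, with 85, 355 and 545 genes called in all, against 917 with every code. With limma on unscaled TPM 0 members passed, and with TMM-rescaled TPM 4 did.

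Compared across states, the span of the codes was small beside the health difference for Bmal1 and larger than it for Nr1d1. In the 32 libraries outside LV, 84.1% of the sum of squares of log2 CPM of Bmal1 lay between health states and 9.36% between codes within a state. For Dbp 67.7% lay between states and 18.9% between codes, for Per2 55.0% and 29.5%, and for Per1 49.7% and 44.8%. Single codes moved these shares between codes, to 17.3% for Per1 without F1, 18.3% for Per2 without H3 and 8.44% for Dbp without H2. Nr1d1 had the opposite split, with 3.62% between states and 85.3% between codes, and Clock had 2.22% between states and 62.2% between codes, which on log2(TPM + 0.1) was 40.4%. The medians over 15770 genes were 23.2% between states, 14.3% between codes and 16.1% between regions. By this description the share between codes of Nr1d1 lay at percentile 99.9 of all genes and that of Clock at percentile 99.3, and the share between states of Bmal1 at percentile 99.1. The share between regions was 0.826% for Per1, 1.27% for Bmal1 and at most 10.7%, for Per2.

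**Figure D4:**
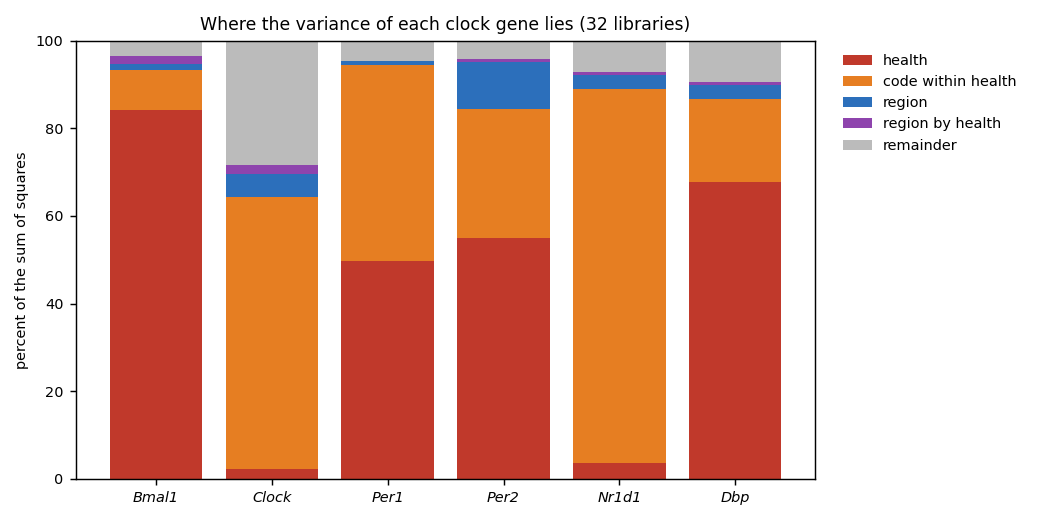
Percent of the sum of squares of log2 CPM (vertical axis) for each clock gene over 32 libraries of iSAN, sSAN, RA and LA, split by health state, code within a state, region, region by health and remainder. Bmal1 and Dbp lie mostly between states, Nr1d1 and Clock mostly between codes, and the share between regions is at most 10.7%.

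Between heart regions of one state, no clock gene passed in the fit without the codes, whereas with the code as a replicate block 1 passed in failing hearts and 3 in healthy hearts. Among failing libraries 0 of 6 members passed the edgeR F test over 5 regions, against 38.6% of all genes (7019 genes at an unadjusted p under 0.05, adjusted p 0.129 to 0.959 for the members). Among healthy libraries 0 of 6 passed, against 56.3% of all genes (9340 genes at an unadjusted p under 0.05). Adjusted p values were 0.064 for Bmal1 and 0.0687 for Per2 in healthy hearts and at least 0.268 for the other 4. With the block, Nr1d1 (edgeR adjusted p 0.0431) passed in failing hearts and Per2 (edgeR adjusted p 4.653e-05), Per1 (edgeR adjusted p 0.0131) and Bmal1 (edgeR adjusted p 0.031) in healthy hearts. DESeq2 called 0 members in failing and 2 in healthy hearts. By mean TPM, Per2 in healthy hearts ran from 16.4 ± 2.91 in RA through 15 ± 3.15 in LA, 12.3 ± 2.97 in iSAN and 9.59 ± 2.64 in sSAN to 5.51 ± 0.392 in LV (SD, n = 4, and n = 2 in LV). Per1 in healthy hearts ran from 25.9 ± 4.04 in RA through 24.9 ± 5.25 in iSAN, 23.5 ± 4.07 in LA and 18.6 ± 5.03 in sSAN to 10.5 ± 1.18 in LV. In both orders each pair of neighbours overlapped except sSAN and LV. For the other 4 genes in healthy hearts, and for all 6 in failing hearts, every pair of neighbours overlapped. Healthy LV held codes H3 and H4 only, and H3 was the lowest healthy code for Per1 and Per2 in the other 4 regions. In CPM, Per2 of H3 and H4 had 37.5 and 45.3 in LV, against 36.0 and 51.2 in iSAN and 38.3 and 49.5 in sSAN. It had 56.9 and 67.9 in RA and 50.6 and 62.3 in LA. Per1 had 47.2 and 60.4 in LV, for either code the lowest of the 5 regions. The low LV values also depended on the scale. With limma on unscaled TPM 3 members passed over regions in each state (Clock, Per2 and Dbp in failing, Clock, Per1 and Per2 in healthy hearts), with TMM-rescaled TPM 0 did, and without LV 0 did.

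Within groups of the same region and state, Bmal1 and Per2 moved in opposite directions from library to library. After the mean of each of the 10 groups had been subtracted, the Pearson correlation of Bmal1 with Per2 in log2 CPM was -0.849 over 38 libraries, rank 1 from the bottom among the 15769 other genes for Bmal1. This and the correlations below are descriptions, since the libraries share 8 codes. Without LV (32 libraries) it was -0.795, rank 3 from the bottom. Nr1d1 correlated with Per2 at -0.581 with LV, rank 116 from the bottom for Per2, and at -0.884 without LV, rank 1 from the bottom. Bmal1 and Nr1d1 correlated at 0.696 without LV and 0.398 with LV, and Bmal1 and Clock at 0.50 without LV and 0.675 with LV. Dbp followed Nr1d1 moderately (0.520 without LV, 0.509 with LV), and Per1 and Per2 correlated at 0.170 without LV and -0.0508 with LV.

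**Figure D5:**
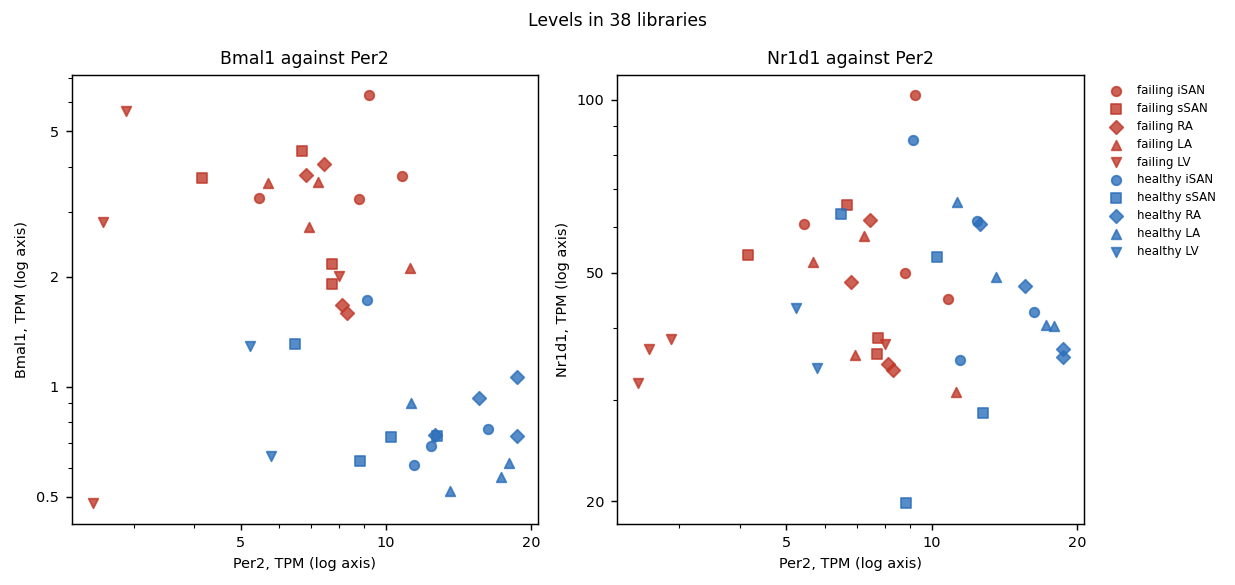
Bmal1 (left) and Nr1d1 (right) in TPM on vertical log axes against Per2 in TPM on horizontal log axes in 38 libraries; red is failing, blue is healthy, and shapes are regions. Within each region failing libraries lie above healthy libraries for Bmal1, except LV F3 at 0.48 TPM, while for Nr1d1 the states cover the same range.

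Outside LV the ratio of Bmal1 to Per2 put the failing and healthy libraries nearly apart. That ratio of TPM values lay between 0.189 and 0.894 in failing libraries (median 0.448, n = 16) and between 0.0328 and 0.202 in healthy libraries (median 0.0570, n = 16). The ratio of Bmal1 to Dbp lay between 0.0198 and 0.0559 in failing libraries and between 0.00311 and 0.0100 in healthy libraries, with no overlap outside LV. In LV both ratios overlapped between the states. They were 0.195 to 1.97 in failing and 0.112 to 0.247 in healthy LV for Bmal1 to Per2, and 0.0134 to 0.186 in failing and 0.00608 to 0.0146 in healthy LV for Bmal1 to Dbp. Outside LV the ratio of Nr1d1 to Per2 lay between 2.76 and 12.9 in failing libraries and between 1.91 and 9.76 in healthy libraries, and overlapped widely. Each ratio restates the levels above and carries no test.

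The genes most like Bmal1 and Dbp by the same measure over 38 libraries, members aside, had no name in the files or the reference. ENSRNOG00000013408 correlated with Bmal1 at 0.743 over 38 libraries and at 0.821 without LV, where it ranked 1. ENSRNOG00000052963 correlated with Bmal1 at 0.739 over 38 libraries and at 0.651 without LV, where it ranked 27. Clock ranked 29 for likeness to Bmal1 over 38 libraries and 305 without LV. ENSRNOG00000016619 correlated with Dbp at 0.863 over 38 libraries and at 0.691 without LV, where it ranked 102. ENSRNOG00000022289 correlated with Dbp at 0.816 over 38 libraries and at 0.732 without LV, where it ranked 43. ENSRNOG00000013408 was scarce, at 2.78 ± 2.07 TPM in failing iSAN and 1.46 ± 0.985 TPM in healthy iSAN, with SDs near the size of the means.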

How the data were processed

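RNA sequencing gave 38 libraries. Per the submitters' processing notes the authors used Trimmomatic 0.39 and kallisto 0.48.0; the build, the annotation and the summing of transcripts to genes are not stated in these sources. The authors deposited estimated counts and TPM for 24057 genes. For the 13474 genes detected in all libraries, the log ratio of deposited estimated count to TPM split into a gene part and a library part to within 9.8e-15, so these counts were already scaled for transcript length. Library totals and the precision they give are stated with the results. Replicates differed by more than counting error (4.77 to 306 times over 55 pairs), 0 library pairs were identical, and 0 columns of per-sample values were left unused.

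Estimated counts were rounded, filtered with filterByExpr (count minimum 10, total minimum 15), scaled with TMM and tested in R 4.3.3 with edgeR 4.0.16 (quasi-likelihood F test, robust), with Benjamini-Hochberg adjustment over all genes tested and a threshold of 0.05. Log2 CPM used a prior count of 2. Health state was compared within each region and over sums by code, and codes and regions within each state. Alternatives were DESeq2 1.42.0, DESeq2-type size factors, no filter, limma 3.58.1 on log2(TPM + 1) and log2(TPM + 0.1) at a mean TPM of at least 0.1, a single fit of the 38 libraries, a replicate block on code, each library or code left out, and LV left out. TMM-rescaled TPM, LV F3 left out of the code, region and interaction fits, sums of squares on log2(TPM + 0.1), Spearman correlation and the CACGTT motif were chosen after seeing the data. The fits were tested on simulated data. The deposited transcript tables entered no test.

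Same-code correlations between regions were -0.0961 to 0.543 in failing and -0.0249 to 0.465 in healthy hearts. All exceeded 0.1 in 5 of 10 region pairs in failing and 6 of 10 in healthy hearts, so codes were not taken as pairs in the main fits. These correlations ran over all genes. Among the members the share of squares between codes ran from 9.36% for Bmal1 to 85.3% for Nr1d1 outside LV. The main region fits leave that share in their error, so the fits with the code as a replicate block are given beside them. The members, the lists and the rule for named genes (all 6 members, and the 2 genes most correlated with Bmal1 and with Dbp after centring by group) were chosen with earlier results of these data known.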

Additional observations from a re-analysis of the deposited data

Results flagged for a closer look

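A library stood apart in 2 of 54 sets of 4 libraries, where a set is 1 gene in 1 region and state. The measure was the gap to the nearest neighbour over the range of the set in log2 CPM (Dixon's test). Chance flags about 1 in 20 sets, and sets of different genes share libraries. Bmal1 in healthy iSAN was the first, where code H3 had 1.72 TPM, against 0.609 to 0.767 TPM in the other 3 libraries. Dbp in failing sSAN was the second, where code F2 had 96.5 CPM, against 123 to 126 CPM in the other 3 libraries. In TPM it had 66.6, against 90.9 to 106. The cause of either was not tested.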

How the results depend on the processing

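With each code left out, Bmal1, Per2 and Dbp kept their direction and call over the sums by code, whereas Per1 lost its call in 6 of 8 runs. Members called in iSAN were 2 with limma on log2(TPM + 1) and 2 on log2(TPM + 0.1), and 2 to 4 with a library left out. In sSAN they were 3 with DESeq2, 3 when 38 libraries shared 1 fit and 0 to 2 with a library left out. They were 3 to 4 in RA, 2 to 4 in LA and 3 to 4 over sums with a library or code left out, and 1 in LV in the fit of all libraries. Among failing codes 0 passed with limma on either unscaled TPM scale, against 4 with TMM-rescaled TPM, and 0 to 5 with a code or LV F3 left out. Among healthy codes 2 passed with limma on log2(TPM + 1). Over regions limma on unscaled TPM called 3 in failing and 3 in healthy hearts on both scales, DESeq2 2 in healthy hearts, and leaving out a healthy code 0 to 1. With the code as a replicate block 1 member (Nr1d1, adjusted p 0.0431) differed between failing regions and 3 (Bmal1 0.031, Per1 0.0131, Per2 4.653e-05) between healthy regions, and 0 in the interaction. The block changed no other call. The cause was not tested. On log2(TPM + 1) and log2(TPM + 0.1) the sign of uncalled log2 differences reversed for Clock in sSAN (0.11 and 0.13), RA (-0.13 and -0.15) and LA (-0.12 and -0.13), and for Nr1d1 in RA (-0.0299 and -0.0307), LA (-0.16 and -0.16) and LV (-0.0878 and -0.0898). With a library or code left out, log2 differences of Clock lay between -0.0654 and 0.0947 in iSAN, -0.16 and 0.0689 in sSAN and -0.0386 and 0.0965 over sums. Those of Nr1d1 lay between -0.0666 and 0.31 in iSAN, -0.11 and 0.41 in sSAN, -0.0944 and 0.23 in LA and -0.0531 and 0.32 over sums, and those of Per2 in LV between -0.31 and 0.0454. On log2(TPM + 0.1) the share of squares between codes was 70.6% for Nr1d1, 40.4% for Clock, 32.2% for Per1 and 21.2% for Per2.
All-gene counts that moved by over 1.5 times are given with that of edgeR second. With limma on log2(TPM + 1) they were 2538 against 5533 in iSAN, 902 against 1934 in sSAN, 166 against 917 between failing codes, 245 against 1163 between healthy codes and 10398 against 5724 between failing regions. With DESeq2 they were 3293 against 1934 in sSAN, 2676 against 917 between failing codes, 2288 against 1163 between healthy codes and 584 against 122 for the interaction, and the fit of all libraries called 3009 in LV, against 0. Leaving out a library or code gave 368 to 1987 in sSAN, 85 to 1532 between failing codes, 337 to 862 between healthy codes and 10 to 213 for the interaction. On log2(TPM + 0.1) limma gave 2720 in iSAN, 992 in sSAN, 139 between failing codes, 263 between healthy codes, 10460 between failing regions and 63 for the interaction, which had 210 with TMM-rescaled TPM and 397 with the code as a replicate block. Without LV there were 2813 between failing regions, 5150 against 8555 between healthy regions and 190 for the interaction. Without a code there were at least 2792 between failing and 5384 between healthy regions. In LV DESeq2 called 356, limma 1 on both scales and edgeR 12 without F3. Depth limits Bmal1 most.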
